A study of Danio rerio with 186 samples.

Results

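Cells of the ins+ gate of the zebrafish pancreas, named beta cells by the study, were described gene by gene and cell by cell. The members were all cells whose sample title starts with ins_30dpf. A cell was kept when it had at least 500 detected genes, a detected gene having at least 1 read, and at least 50000 reads outside the spike-in rows. This left 56 of 60 ins+ cells, among 174 kept cells of 186 in the series. Titles carry a number, 3 or 4, before a well-like position, and this number is read here as a plate. Plate 3 gave 32 of 33 ins+ cells and plate 4 gave 24 of 27, and the plates were kept apart throughout.

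The study sorted single cells by fluorescence into 3 gates and made cDNA with Smart-Seq2, a plate method that captures whole transcripts without molecular identifiers. Beside the ins+ cells, plate 3 held the sst1.1+ ins+ gate with 57 kept cells, and plate 4 held the sst1.1+ gate with 61. All cells of all gates came from enzymatically dissociated pancreas of fish at 30 dpf (days post fertilization) that carried Tg(ins:BB1.0L) together with TgBAC(sst1.1:memEGFP), under a growth label of Normal, so genotype, age and growth were shared by every group. The transgenes are named for the insulin gene ins and the somatostatin gene sst1.1, the second with a membrane EGFP. No fish is named for any cell. Each gate on each plate therefore counts as 1 sample, cells are not replicates of a condition, and no difference below has a replicate check or a p-value.

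Beta cells make insulin and release it when blood glucose is high. Glucose enters through a transporter, is phosphorylated by glucokinase and burnt in mitochondria, and the ATP made there closes potassium channels so that calcium enters and granules fuse. The hormone is translated as a precursor on the endoplasmic reticulum (ER), folded there, and cut in the granule by prohormone convertases and carboxypeptidase E.

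The kept ins+ cells had a median of 422832 gene reads on plate 3 (126018 to 766108) and 536886 on plate 4 (372260 to 629710), and the pools of summed cells had 13530311 and 12550652 reads. The median ins+ cell had 2564 detected genes on plate 3 and 2746.5 on plate 4, fewer than the median sst1.1+ ins+ cell, with 4999, or the median sst1.1+ cell, with 3616. The 4 ins+ wells left out had 1745 to 6649 gene reads beside 102811 to 418641 spike-in reads. The gates took different rows of a plate and met in a single row only, F on plate 3 and C on plate 4, so gate and row cannot be told apart. No doublet caller was run, and 0 cells shared identical counts. A level is given in CPM, counts per 1000000 gene reads of a pool or of a cell. Unlike the detected genes above, a gene is called read in a cell, or held by it, from at least 5 reads. Intervals are exact, at 95%. Those of levels and ratios treat reads as independent, which PCR copies are not, so they can be too narrow. They also leave out the spread between cells. Those of shares of cells treat cells as independent draws. Without transcript lengths, CPM of different genes compares shares of reads and not transcript levels.

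Reads of ins (ENSDARG00000035350) took a large and steady share of the ins+ cells. On plate 3 its share was 17.2% in the lowest cell, 40.6% in the median and 50.8% in the highest, and on plate 4 it was 18.2%, 37.5% and 44.4%. Most cells lay close together, with an SD over cells of 7.22 percentage points on plate 3 and 6.76 on plate 4, and the lowest cells were those with reads of another hormone described below. The pools stood at 397976 CPM (397640 to 398312) on plate 3 and 368884 CPM (368548 to 369220) on plate 4. In sst1.1+ cells of plate 4, ins stood at 43.7 CPM in the lowest cell, 135 in the median and 10467 in the highest, all below every ins+ cell. In sst1.1+ ins+ cells of plate 3 its share was 0.0174% in the lowest cell, 20.2% in the median and 41.6% in the highest. The shares of that gate and of ins+ cells therefore overlapped. Row medians of the ins share lay between 38.01 and 41.6% on plate 3 and between 37.2 and 39.4% on plate 4.

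The other beta-cell markers were present, but 2 of them were not read in every cell. Gene pdx1 (ENSDARG00000002779), a homeobox factor that drives pancreas formation and insulin transcription, had 148, 1154 and 4695 CPM in the lowest, median and highest ins+ cell of plate 3 and 481, 1148 and 2906 CPM on plate 4. The glucokinase gene gck (ENSDARG00000068006) had 85.6, 541 and 2222 CPM on plate 3 and 212, 726 and 1435 CPM on plate 4. Each was read in all ins+ cells, and each was also read in 59 of 61 sst1.1+ cells, where the pool stood at 1335 CPM of pdx1 and 888 CPM of gck. The pair therefore did not separate ins+ from sst1.1+ cells.

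The homeobox factor genes nkx6.2 (ENSDARG00000104735) and mnx1 (ENSDARG00000035984) were seldom or never read in sst1.1+ cells, and many single ins+ cells lacked their reads too. At least 5 reads of nkx6.2 were found in 19 of 32 ins+ cells of plate 3 (59.4%, 40.6 to 76.3%) and 15 of 24 of plate 4 (62.5%, 40.6 to 81.2%), against 0 of 61 sst1.1+ cells. Its lowest, median and highest cells had 0, 30.99 and 391 CPM on plate 3 and 0, 31.1 and 386 CPM on plate 4. For mnx1 the cells had 0, 74.6 and 263 CPM on plate 3 and 0, 18.7 and 311 CPM on plate 4, with at least 5 reads in 21 and 13 cells, against 5 of 61 sst1.1+ cells. Pools of plates 3 and 4 were nearly equal for both genes, at 86.4 and 92.7 CPM of nkx6.2 and at 80.0 and 79.6 CPM of mnx1. Cells of the sst1.1+ ins+ gate on plate 3 also held both, at up to 264 CPM of nkx6.2 and 278 CPM of mnx1. Against the pool of that gate 0 of the 5 beta-cell markers passed 2-fold, with a median log2 ratio of 0.78. Of all 1704 genes tested there, 5.63% were higher in ins+ cells and 6.4% lower, with a median of 0.08. Cells without reads cannot be told apart from cells in which a low transcript was missed.

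**Figure D1:**
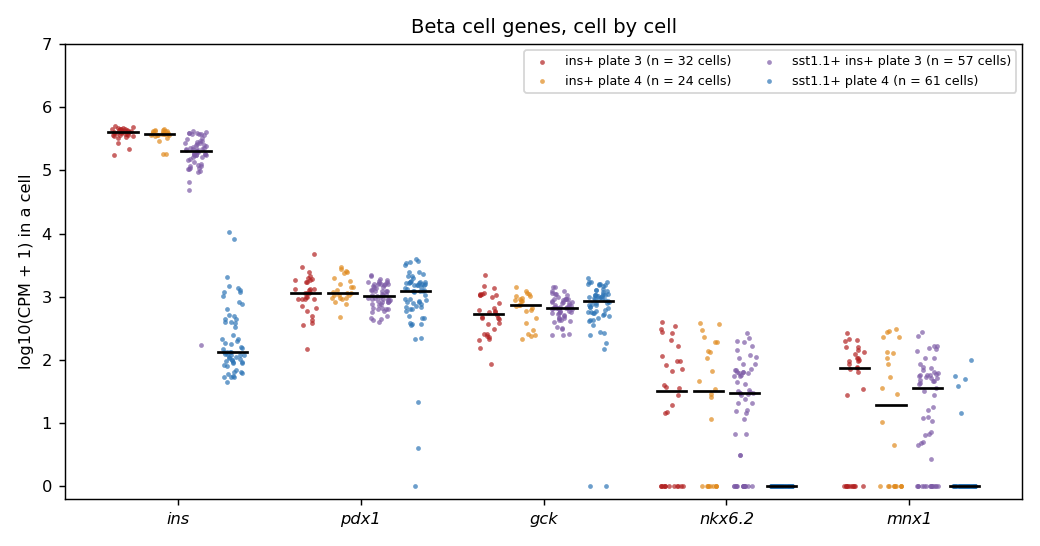
Log10(CPM + 1) of ins, pdx1, gck, nkx6.2 and mnx1 in each kept cell (points) with the median over cells (black bars), for ins+ cells of plates 3 and 4, sst1.1+ ins+ cells of plate 3 and sst1.1+ cells of plate 4. No ins+ cell lies below 172152 CPM of ins, and nkx6.2 has 0 reads in all 61 sst1.1+ cells. Levels of pdx1 and gck overlap between all gates, and those of ins, nkx6.2 and mnx1 overlap between ins+ and sst1.1+ ins+ cells.

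Among 33 transcription factors of islet cells found in the table, 10 were read in at least 50% of the ins+ cells of each plate. Beside pdx1, they include pax6b, a paired-box factor of all endocrine cells, with 781 and 870 CPM on plates 3 and 4 and reads in every ins+ cell, and neurod1, a bHLH factor of endocrine differentiation, with 487 CPM (27 of 32 cells) and 425 CPM (22 of 24 cells). The LIM factor gene isl1 stood at 277 and 254 CPM, and nkx2.2a, a homeobox factor needed for endocrine cell fate, at 130 and 140 CPM against 61.98 CPM in sst1.1+ cells. The zinc finger genes insm1a and insm1b stood at 142 and 76.9 CPM on plate 3 and at 144 and 125 CPM on plate 4, and insm1b was past 2-fold lower in sst1.1+ cells, at 10.004 CPM, while insm1a stood there at 170.4 CPM. The endocrine progenitor factors neurog3 and ascl1b had 0 reads in the ins+ cells of both plates, as did mafa, pax6a and glis3. Between the ins+ pools, 0 of the 10 members with at least 50 CPM passed 2-fold, with a median log2 ratio of -0.05. Over all 1868 genes tested that way, 4.18% were higher on plate 3 and 9.96% lower, with a median of -0.13. Against the sst1.1+ ins+ pool of plate 3, 0 of 12 members passed 2-fold, where 5.63% of all 1704 genes were higher in ins+ cells and 6.4% lower. Against the sst1.1+ pool of plate 4, 4 of 13 members were higher and 3 lower, where 12.7% and 16% of all 2087 genes were. The list medians were 0.49 and 0.46, and those of all genes 0.08 and -0.03.

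Genes that link glucose to secretion were uneven from cell to cell. The glucose transporter gene slc2a2 had 37.9, 347 and 897 CPM in the lowest, median and highest ins+ cell of plate 3 and 0, 240.1 and 752 CPM on plate 4, so that nearly every cell held it. The glucose-6-phosphatase gene g6pcb, whose product reverses the glucokinase step, had 0, 241 and 2921 CPM on plate 3 and 0, 169.8 and 1821 CPM on plate 4. At least 5 reads of g6pcb were found in 24 of 32 and 14 of 24 ins+ cells, against 29 of 61 sst1.1+ cells. Its medians per plate row lay between 95.7 and 356 CPM on plate 3 and between 139.9 and 244.5 CPM on plate 4. The channel subunit gene abcc8 was the only one of 6 members tested to pass 2-fold between the ins+ pools, at 41.6 CPM in 13 of 32 cells on plate 3 and 112 CPM in 16 of 24 cells on plate 4. Its partner kcnj11, the pore of the ATP-sensitive channel, was read in 6 of 32 and 3 of 24 cells. The glucagon receptor gene gcgra stood at 60.4 and 73.6 CPM in 10 and 12 ins+ cells, against 1 of 61 sst1.1+ cells, and ucn3l, a urocortin gene, was read in 3 and 5 ins+ cells. The list median over the 6 members was -0.23 in log2 between plates. Of all genes 4.18% were higher on plate 3 and 9.96% lower, with a median of -0.13. Against sst1.1+ cells 3 of 6 were higher, with a median of 0.79, where 12.7% of all genes were, with a median of -0.03.

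Of 16 genes found that process and package the hormone, 11 were read in at least 50% of the ins+ cells of each plate. The granin gene scg3 had 3664, 6675 and 11385 CPM in the lowest, median and highest cell of plate 3 and 4061, 7214 and 14615 CPM on plate 4. The prohormone convertase gene pcsk1 had 235, 910 and 2100 CPM on plate 3 and 106.5, 1251 and 2745 CPM on plate 4. These ranges cover each other, and both genes were read in every ins+ cell. The carboxypeptidase gene cpe stood at 2018 and 2307 CPM in the pools of plates 3 and 4, the amidating enzyme gene pam at 819.9 and 879 CPM, and pcsk1nl, whose product inhibits that convertase, at 895 and 1044 CPM. The second convertase gene pcsk2 stood at 507 and 567 CPM. A pair of other granins was lower in ins+ cells, where scg2b stood at 407 and 486 CPM, against 775 CPM for the sst1.1+ ins+ pool and 1767 CPM for the sst1.1+ pool. For chga the values were 125 and 211 CPM in ins+ cells, against 320.4 and 554 CPM in those pools. Of 11 members tested, 0 passed 2-fold between the ins+ pools, with a median of -0.22. Over all genes 4.18% were higher on plate 3 and 9.96% lower, with a median of -0.13. Against the sst1.1+ ins+ pool 1 was higher, pcsk1, and 1 lower, chga, with a median of 0.20, and against the sst1.1+ pool 1 was higher and 2 lower, with a median of 0.06. In these comparisons 5.63% and 12.7% of all genes were higher in ins+ cells and 6.4% and 16% lower. Their medians were 0.08 and -0.03.

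Among 16 genes of the release machinery found, rims2a, which organizes the site of granule docking, was read in every ins+ cell, with 28.3, 845 and 2332 CPM on plate 3 and 303, 909 and 2866 CPM on plate 4. The vesicle GTPase gene rab3c was read in 19 of 32 and 19 of 24 ins+ cells, against 2 of 61 sst1.1+ cells. The SNARE genes snap25a and snap25b stood at 148 and 30.3 CPM on plate 3 and at 181 and 73.5 CPM on plate 4. Of 7 members tested, only snap25b passed 2-fold, lower on plate 3, where 9.96% of all genes were lower and 4.18% higher.

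In the ER and stress lists 0 members tested passed 2-fold between the ins+ pools, and part of their members were lower in ins+ cells than in the other gates. The ER chaperone gene hspa5 had 0, 170.2 and 2129 CPM in the lowest, median and highest ins+ cell of plate 3 and 4.39, 136 and 876 CPM on plate 4, against a median cell of 683 CPM in the sst1.1+ ins+ gate and 1871 CPM in the sst1.1+ gate. Of the ER list, 22 members were tested between the ins+ pools and 0 passed 2-fold, with a median of -0.08. Between these pools 14.1% of all genes passed, with a median of -0.13. Set against the sst1.1+ ins+ pool of plate 3, 7 of 25 members were lower in ins+ cells and 0 higher, with a list median of -0.38. Against the sst1.1+ pool of plate 4, 12 of 28 were lower and 0 higher, with a median of -0.96. The shares of all genes that were lower were 6.4% and 16%, with medians of 0.08 and -0.03. With ins reads taken out of the total, 4 of 28 and 7 of 30 were lower and 1 was higher in each comparison, with list medians of -0.01 and -0.26. Under that total 3.47% of all 2677 genes and 6.95% of all 2863 were lower and 23% and 39.2% higher, with medians of 0.54 and 0.78. Members near parity included spcs2 of the signal peptidase, at 309 and 315 CPM in ins+ cells, and the stress factor gene atf4b, at 256 and 317 CPM.

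Summed over the list of immediate-early genes and genes of dissociation stress, the median ins+ cell had 3814 CPM on plate 3 (1494 to 27011) and 3790 CPM on plate 4 (1566 to 18418). Between the ins+ pools 0 of 13 members tested passed 2-fold, where 14.1% of all genes did. Their median log2 ratio of plate 3 over plate 4 was 0.31, against -0.13 over all genes. The upper quartiles of ins+ cells were 6325 and 4758 CPM. Their highest cells were cell 6 of plate 3, which had a second hormone as given below, and cell 26 of plate 4. The median sst1.1+ ins+ cell, with 13709 CPM, lay above these quartiles but inside the range of ins+ cells. The median sst1.1+ cell, with 27794 CPM, lay above that range. Of the members tested, 12 of 19 were lower in ins+ than in sst1.1+ ins+ cells, and 18 of 21 were lower and 1 higher than in sst1.1+ cells, with list medians of -1.40 and -2.47. Over all genes, 6.4% and 16% were lower in these comparisons and 5.63% and 12.7% higher, with medians of 0.08 and -0.03. The factor gene atf3 was read in 3 of 32 and 2 of 24 ins+ cells, at 3.18 and 14.3 CPM, against 246 CPM for the sst1.1+ ins+ pool and 880.1 CPM for the sst1.1+ pool. The 1 gene that was higher, dusp2, encodes a phosphatase of MAP kinases and stood at 354 and 344 CPM in ins+ cells, against 177 and 106 CPM in those pools. This list, the number of detected genes and the plate row differed together between gates, and their part in the gate differences given here was not tested.

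Between the ins+ pools, the lists of oxidative phosphorylation with the TCA cycle, glycolysis and ribosomal proteins had median log2 ratios of -0.03, -0.22 and 0.05. Over all genes the median was -0.13, with 4.18% higher on plate 3 and 9.96% lower. Of 30 members tested in the list of oxidative phosphorylation and the TCA cycle, 2 were higher on plate 3: the citrate synthase gene cs, at 68.7 and 32.6 CPM on plates 3 and 4, and idh3b of isocitrate dehydrogenase, at 89.9 and 40.9 CPM. Pyruvate carboxylase, which refills the TCA cycle in beta cells, is encoded here by pcxb: it was read in 31 of 32 ins+ cells, at 315 CPM, and in 24 of 24, at 502 CPM, against 9 of 61 sst1.1+ cells at 59.7 CPM. Its per-cell range was 0 to 1171 CPM on plate 3 and 172 to 1033 CPM on plate 4. Of 11 glycolysis members, 1 passed 2-fold, the mutase gene pgam1b, and of 54 ribosomal protein genes 0 did. Of 3 members tested in the list of insulin and growth factor signalling, pik3r1 passed, at 25.5 CPM on plate 3 and 62.1 CPM on plate 4. In the same list the factor gene foxo1a stood at 236 and 319 CPM and the prolactin receptor gene prlra at 325 and 299.98 CPM. Hormones aside, the named genes with most reads in both ins+ pools were malat1, a nuclear long RNA, with 17201 and 19132 CPM, and ppdpfb, with 9976 and 9666 CPM. The ppdpfb level in ins+ cells was above the 6503 CPM of the sst1.1+ ins+ pool and the 2346 CPM of the sst1.1+ pool. Among the next were mt-co1, scg3 and mt-co2.

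A few ins+ cells carried many reads of a second hormone. At least 5% of gene reads in sst1.1, sst1.2, sst2, gcga, gcgb, ghrl, gip and pyyb together were found in 3 of 32 cells of plate 3 (9.38%, 1.98 to 25.02%) and 2 of 24 of plate 4 (8.33%, 1.03 to 26.997%). Over all ins+ cells the median share of these hormones was 0.0897% on plate 3 and 0.115% on plate 4. At a threshold of 1% the counts were 6 and 3, and the cells so added all had sst1.1 as their main second hormone, between 10891 and 29339 CPM.

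The 5 cells fell into kinds by their main second hormone. Cells 3 and 6 of plate 3 had somatostatin reads of sst1.2, at 98999 and 164191 CPM, and sst2, at 90569 and 73887 CPM, with 75.3 and 113 CPM of sst1.1. Cell 1 of plate 4 had 194330 CPM of sst1.1 and 11366 CPM of sst1.2. Glucagon genes marked the other pair: cell 18 of plate 3 had 60025 CPM of gcga beside 7805 CPM of gcgb, and cell 12 of plate 4 had 110896 CPM beside 56656 CPM. No cell of the 5 had both somatostatin and glucagon genes above 1000 CPM, but cell 18 of plate 3 came near, with 952 CPM of sst1.1. In the glucagon cells dkk3b, a delta-cell gene, stood at 1579 and 2080 CPM, against 331, 242 and 2296 CPM in the somatostatin cells. Their ins shares were 22.003, 17.2 and 27.2% in cells 3, 6 and 18 of plate 3 and 18.2 and 18.4% in cells 1 and 12 of plate 4, the lowest on each plate. Reads of ins exceeded those of all other hormones together in every ins+ cell but cell 6 of plate 3 and cell 1 of plate 4. The summed hormone level per cell, with ins, was 328606 to 509054 CPM over plate 3 and 291499 to 444635 CPM over plate 4.

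These 5 cells had 5388, 4362 and 3475 detected genes on plate 3 and 4600 and 4215 on plate 4, above the upper quartiles of 3124.5 and 3068. Gene reads per spike-in read were 78.1, 67.7 and 32.2 on plate 3 and 59.9 and 45.8 on plate 4, against medians of 28.3 and 29.1. Among cells without another hormone, cells 10 and 23 of plate 3 had 4395 and 3837 detected genes and 70.5 and 69.7 gene reads per spike-in read. Cell 10 is the plate 3 cell with 17 cell cycle genes given below. The part of doublets in these values was not tested. The stress-linked gene nupr1 was confined to few cells, and the glucagon cell of each plate held most of its reads. Cell 18 of plate 3 had 1829 CPM, 99.9% of its reads in that pool. Cell 12 of plate 4 had 1422 CPM, 95.2% of its reads there.

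**Figure D2:**
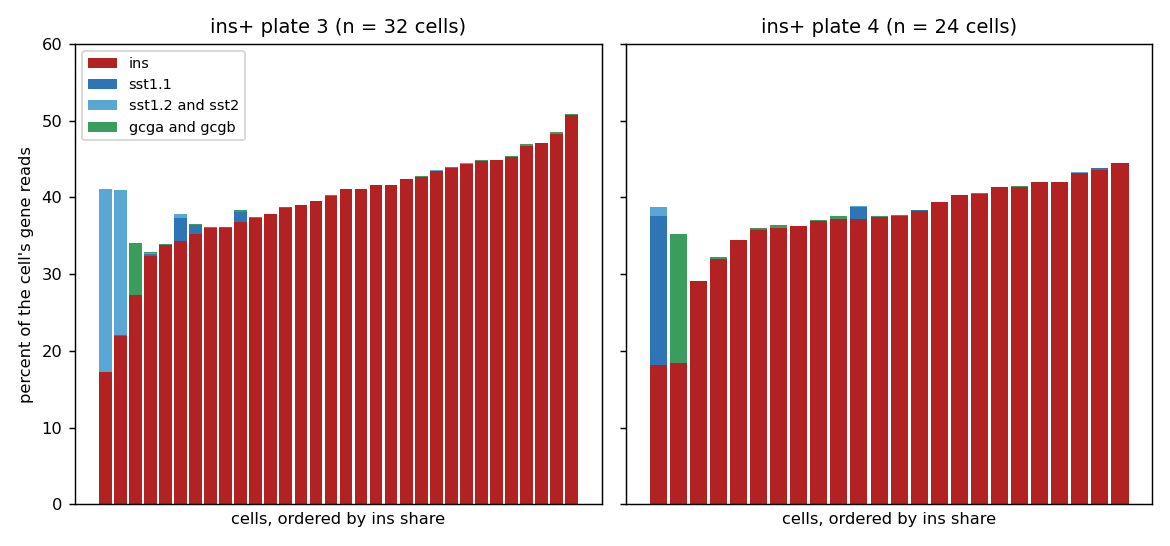
Percent of gene reads in ins, sst1.1, sst1.2 with sst2, and gcga with gcgb (stacked bars) for each ins+ cell, ordered by ins share, on plate 3 (left, 32 cells) and plate 4 (right, 24 cells). The cells at the low end of ins, 3 on plate 3 and 2 on plate 4, are those with at least 5% of reads in another hormone.

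Cells with a few glucagon reads were more frequent in the ins+ than in the sst1.1+ gate, while pool levels ran the other way. The plate 4 ins+ pool had 5711 CPM of gcga and 2784 CPM of gcgb, against 13244 and 12989 CPM for the sst1.1+ pool, and the plate 3 ins+ pool had 2330 and 323 CPM. At least 5 reads of gcga were found in 30 of 32 ins+ cells of plate 3 (93.8%, 79.2 to 99.2%) and 22 of 24 of plate 4 (91.7%, 73.0 to 99.0%), against 54 of 57 sst1.1+ ins+ cells and 37 of 61 sst1.1+ cells. The median cell had 405 and 447 CPM in the ins+ cells of plates 3 and 4, 279 CPM in the sst1.1+ ins+ gate and 17.8 CPM in the sst1.1+ gate. Median depths were similar, at 536886 gene reads in ins+ cells of plate 4 and 556705 in sst1.1+ cells. The ghrelin gene ghrl was read in all 56 ins+ cells, at 95.2 and 65.2 CPM, and in 61 of 61 sst1.1+ cells at 94.98 CPM. The 4 ins+ wells left out, with few gene reads, had 9.34 to 12.3% of them in ghrl, 5.35 to 5.67% in gip and 14.8 to 17.9% in ins. These wells also had 3.22 to 3.72% in sst1.2, 2.27 to 2.81% in sst2 and 775 to 2575 CPM of gcga. Whether low hormone counts in kept cells came from outside the cell was not tested. The second glucagon gene gcgb had a median of 6.86 and 9.82 CPM in ins+ cells, against 0 CPM in sst1.1+ cells. The alpha-cell factor genes arxa and mafba were read in at most 1 ins+ cell of each plate.

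Cells with reads of many cell cycle genes were few. With each cell thinned to 100000 reads, 2 of 32 ins+ cells on plate 3 and 3 of 24 on plate 4 had at least 5 reads of 10 or more of the 38 cell cycle genes found. They had 17 and 10 such genes on plate 3 and 14, 16 and 19 on plate 4, while the medians over cells were 1 and 2. The replication clamp gene pcna was read in 6 of 32 and 5 of 24 cells, at up to 1860 CPM on plate 3 and 1718 CPM on plate 4, with a median of 0 CPM on both. Of 4 members tested between the ins+ pools, stmn1a, hmgb2a and hmgb2b were lower on plate 3, at 51.1, 165 and 42.6 CPM on plate 3 against 228, 343 and 113 CPM on plate 4. The list median was -1.22, where 9.96% of all genes were lower, with a median of -0.13. On plate 3, 40.2% of the reads of the list came from 1 cell, and on plate 4 33.3% did. Their ins shares were 42.4 and 41.1% on plate 3 and 18.2, 37.2 and 36.9% on plate 4, where the lowest is the sst1.1 cell above.

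Variation from cell to cell was measured for 1275 genes with a mean of at least 50 CPM on each plate, as log10 of the squared coefficient of variation minus the running median over genes of like mean. The 100 most variable genes of plate 3 and of plate 4 shared 43, which is 43% of each list and 3.37% of the genes measured. Some hormone genes led, each carried mainly by the cells described above. The excess was 2.35 and 2.30 on plates 3 and 4 for gcga and 2.05 and 2.34 for sst1.1. For sst1.2 it was 2.27 and 1.84, and for gcgb 1.54 and 2.33. Lower were pyyb, at 0.79 and 0.45, and ghrl, at -0.30 and -0.90. No gene had a mean near that of ins, so its excess is not given. Excess of pdx1 was 0.68 and 0.33.

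Among variable genes outside the hormones, the heat-shock gene hsp70l had 11.9, 454 and 9198 CPM in the lowest, median and highest ins+ cell of plate 3 and 20.9, 295 and 5679.9 CPM on plate 4, with an excess of 1.39 and 1.19. Most cells held some of it, and 1 cell on each plate held 29.8 and 42.7% of its reads. Reads of the hsp70 copies are uncertain between members of that family. The immediate-early factor gene EGR4 had 0, 85.2 and 3303 CPM on plate 3 and 0, 86.8 and 3038 CPM on plate 4, with an excess of 0.93 and 0.90. It was read in 22 of 32 and 16 of 24 cells, against 43 of 61 sst1.1+ cells. For g6pcb the excess was 0.95 and 0.64. The calcitonin gene calca was read in 7 of 32 and 13 of 24 cells, at up to 1754 CPM on plate 3 and 9948 CPM on plate 4, and in 6 of 61 sst1.1+ cells. The next genes in order were rgs4, which dampens G-protein signalling, dnajb1b, errfi1, dkk3b and the glucocorticoid-induced chaperone gene fkbp5, at 402 and 646 CPM.

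A second G-protein regulator gene, rgs5a, was high in the median cell and near 0 in the lowest, with 1.99, 1796 and 3498 CPM in the lowest, median and highest cell of plate 3 and 0, 1751 and 3861 CPM on plate 4. It was read in 31 of 32 and 22 of 24 cells, and all 61 sst1.1+ cells held it. Among the 190 pairs of the 20 most variable genes without hormones, Spearman's rho over cells reached 0.5 on both plates in 0 pairs, with medians of 0.04 over 32 cells and 0.01 over 24. The highest pair by the weaker plate was dkk3b with dusp1, at 0.40 and 0.43. No pair reached -0.5 on both plates either, and EGR4 with fkbp5 came nearest, at -0.52 and -0.48, ahead of the highest positive pair in size. For rgs4 with rgs5a the values were -0.53 and -0.35.

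**Figure D3:**
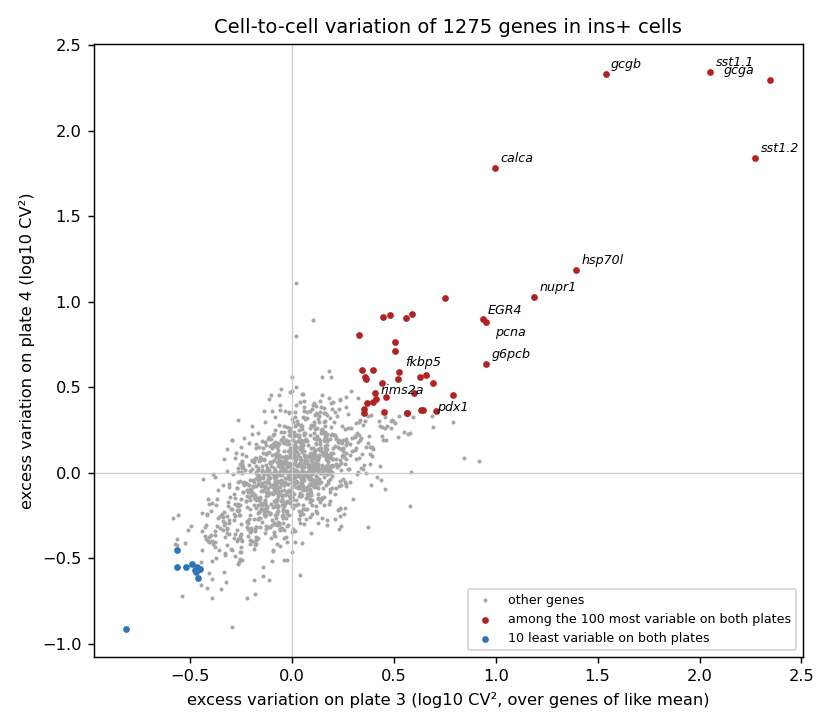
Excess of log10 squared coefficient of variation over genes of like mean on plate 3 (horizontal, 32 ins+ cells) and plate 4 (vertical, 24 ins+ cells) for 1275 genes; red marks the 43 genes among the 100 most variable on both plates and blue the 10 least variable. The hormone genes gcga, gcgb, sst1.1 and sst1.2 lie at the upper right and hsp70l, calca and nupr1 next to them.

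The least variable genes encoded small subunits of the respiratory chain, the ER translocon and the ribosome. They were sec61g and sec61b of the translocon, UQCR10, cox6a1 and cox7b of the respiratory complexes, atp5ib, atp5ia and mt-atp8, and the ribosomal genes rpl36a and faua. The excess of sec61g was -0.82 and -0.91. Its cells had 13.7, 55.02 and 126 CPM on plate 3 and 5.27, 50.6 and 114 CPM on plate 4, with none at 0. The low excess is relative to genes of like mean, and the lowest cells lay well below the median. For cox7b the cells had 3.63, 261 and 538 CPM on plate 3 and 109.3, 264 and 546 CPM on plate 4. Of 54 ribosomal genes measured, 0 were among the 100 most variable on either plate, with a median excess of -0.15 and -0.27, whereas 7.84% of all genes measured are in each list of 100.

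Cells with a larger ins share also had larger shares of ribosomal protein genes. With ins reads taken out of the total, 23 of 1083 genes read in at least 50% of cells on each plate (2.12%) had a rho with the ins share of at least 0.4 on both plates, and 0 had one of -0.4 or less. Of the 23, 19 were among the 78 ribosomal protein genes measured whose name stands on 1 row, and rpl37, a name that 2 rows carry, was a further one. The median rho of the 78 was 0.43 on plate 3 and 0.35 on plate 4, against 0.03 and 0.04 over all genes. Leading genes were rpl32, with 0.62 and 0.60, rplp1, with 0.60 and 0.58, RPL37A, with 0.57 and 0.58, and the elongation factor gene eef1a1l1, with 0.53 and 0.53. Ranked by the weaker of both plates, the lowest was the heat-shock gene hsp70.3, at -0.32 and -0.36, followed by sst1.1, at -0.39 and -0.30, and dkk3b, at -0.35 and -0.27, was among the 8 lowest.

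The summed ribosomal genes gave the same picture in 1 value per cell. They stood at a median of 151435 CPM of the reads without ins on plate 3 (73557 to 192586) and 134472 CPM on plate 4 (87135 to 170361). Against the ins share, rho was 0.64 over 32 cells and 0.57 over 24, and without the 5 cells with another hormone it was 0.57 over 29 and 0.46 over 22. Depth moved with ins as well: rho with gene reads was 0.57 on plate 3 and 0.23 on plate 4, and with gene reads per spike-in read 0.30 and 0.11. Without the 5 cells these were higher, at 0.66 and 0.44 with gene reads and at 0.64 and 0.42 with gene reads per spike-in read. The part of depth was not tested. All these rho describe cells that share a plate and a total. Without the 5 cells, 13 genes passed, 12 with a positive and 1 with a negative rho and 10 of them among the 23, and with ins reads kept in the total 2 genes passed, both with a negative rho and none of the 23, with ribosomal medians of 0.16 and 0.05.

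**Figure D4:**
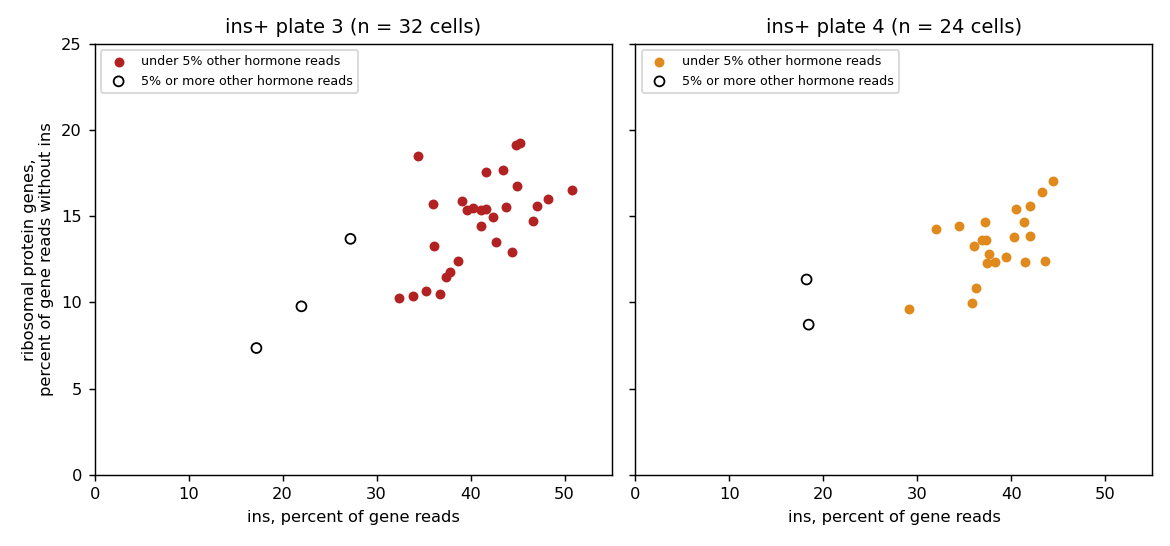
Summed ribosomal protein genes as percent of gene reads without ins (vertical) against the share of ins in gene reads (horizontal) in ins+ cells of plate 3 (left, 32 cells) and plate 4 (right, 24 cells); open circles are cells with at least 5% of reads in another hormone. The points rise together with a rho of 0.64 and 0.57, and the open circles lie at the low end of ins.

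Between the plates, the ins+ pools differed past 2-fold in 264 of 1868 genes (14.1%), with 78 higher and 186 lower on plate 3. The log2 ratios of plate 3 over plate 4 had an SD of 0.75. Most of these genes were read in a minority of cells: 41 of the 78 and 103 of the 186 had at least 5 reads in under 50% of the cells of the higher pool. Scaled by TMM factors, which moved the median of all genes to 0.03, 225 genes passed, with 106 higher and 119 lower.

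Named here are genes with at least 5 reads in at least 50% of the cells of the higher pool. Highest of these on plate 3 were sst2 and sst1.2, mainly from cells 3 and 6, with log2 ratios of 8.38 and 3.95 that moved to 0.55 and 2.28 without the 5 cells with another hormone. Then came ubqln4, at 68.4 CPM in 17 cells on plate 3 and 13.2 CPM in 6 cells on plate 4, the deubiquitinase gene usp10, at 93.3 and 21.4 CPM, and the exoribonuclease gene xrn2, at 91.8 and 25.9 CPM. The calcium channel gene cacna1aa was read in 23 of 32 cells of plate 3, at 75.7 CPM, and in 8 of 24 cells of plate 4, at 24.7 CPM. Lowest on plate 3 was gcgb, whose log2 ratio of -3.10 moved to -1.28 without the 5 cells. It was followed by calca. Cells 9 and 4 of plate 4 had 9948 and 6123 CPM of calca, and no other cell of that plate exceeded 261 CPM. Next was cd74b, the invariant chain of MHC class II, with 18.5 CPM in 4 cells of plate 3 and 136 CPM in 13 cells of plate 4. Then came sst1.1, whose log2 ratio of -2.76 turned to 0.87 without the 5 cells, pgam1b, at 11.5 and 54.02 CPM, nav2b, at 21.1 and 93.4 CPM, degs1, which makes ceramide, at 17.7 and 74.98 CPM, and the Wnt pathway scaffold gene axin1, at 14.6 and 61.4 CPM. Apart from the hormones, each of these genes had 0 reads in the lowest cell of both plates.

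Genes set against both other gates, each on its own plate, needed at least 50 CPM in both ins+ pools. Of 1253 such genes, 36 (2.87%) were at least 2-fold higher in ins+ cells than in both. Of the same genes, 55 (4.39%) passed against sst1.1+ ins+ cells alone and 156 (12.5%) against sst1.1+ cells alone. The kinase gene pdk2b, whose product inhibits pyruvate dehydrogenase, led. It stood at 114 CPM in the ins+ pool of each plate, against 19.6 CPM for the sst1.1+ ins+ pool and 6.93 CPM for the sst1.1+ pool. Yet only 11 of 32 and 9 of 24 ins+ cells held it, against 13 of 57 and 7 of 61 cells of those gates, and the highest ins+ cells had 1070 and 1011 CPM. For nell2a, a secreted glycoprotein gene, the pools stood at 92.2 and 100.7 CPM, against 34.9 and 6.87 CPM, with reads in 22 of 32 and 14 of 24 ins+ cells, against 31 of 57 and 7 of 61.

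Receptor and lipid genes were part of this set. The histamine receptor gene HRH2 stood at 124 and 91.1 CPM in ins+ cells, against 40.03 CPM for the sst1.1+ ins+ pool and 8.86 CPM for the sst1.1+ pool. The relaxin family receptor gene rxfp3 stood at 94.5 and 56.1 CPM, against 36.6 and 12.6 CPM. It was read in 14 of 32 and 11 of 24 ins+ cells, against 31 of 57 and 10 of 61 cells of those gates, so its higher pool on plate 3 came from fewer cells with higher levels. The fatty acid desaturase gene scdb stood at 110.4 and 88.8 CPM, against 37.1 and 34.6 CPM, and the adiponectin receptor gene adipor1b at 90.02 and 74.98 CPM, against 30.97 and 28.7 CPM. In this set the convertase gene pcsk1 was read in every ins+ cell, with ratios of 2.57 (2.51 to 2.64) over sst1.1+ ins+ cells and 3.78 (3.69 to 3.87) over sst1.1+ cells, while its per-cell ranges overlapped between gates. Also named by the rule were fbxo25, snx9b and hebp2. With ins reads taken out of the total the count was 272 of 2022, and with those of 14 hormone genes taken out it was 95 of 2078. All 36 genes were in both, but neither total could drop them. The 14 hormone genes took 41.6% of the ins+ pool of plate 3 against 38.9% of the sst1.1+ ins+ pool. On plate 4 they took 38.8%, against 31.5% of the sst1.1+ pool, and ins alone also took more of the ins+ pools. Leaving these reads out therefore raises every ratio of ins+ cells to the other gates. Without the 5 cells with another hormone the count was 50 of 1238 (4.04%), and 33 of the 36 were among them. Of the 36 genes, 27 still passed with TMM factors, 27 with a pseudocount of 5 CPM and 31 with the mean of CPM over cells.

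Lower in ins+ cells than in both gates were 79 of 1284 genes (6.15%) with at least 50 CPM in both other pools. The lowest were the stress factor gene atf3, the ETS factor gene elf3, with 0.222 CPM on plate 3 and 0 reads on plate 4, cpne4a, sst1.1 itself and the integrin gene itga6b, which was read in 1 ins+ cell of each plate, against 44 of 57 sst1.1+ ins+ cells and 57 of 61 sst1.1+ cells.

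**Figure D5:**
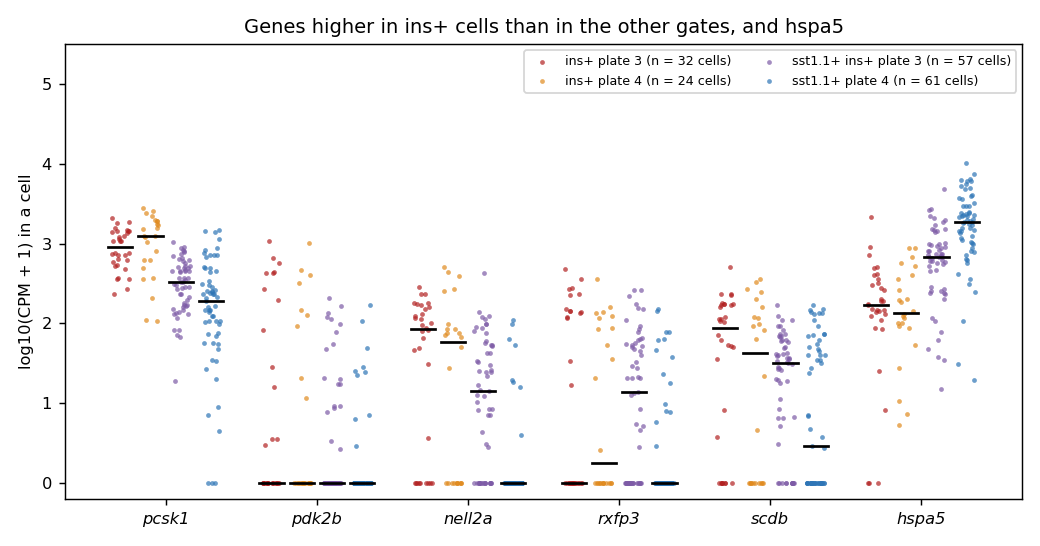
Log10(CPM + 1) of pcsk1, pdk2b, nell2a, rxfp3, scdb and hspa5 in each kept cell (points) with the median over cells (black bars) in ins+ cells of plates 3 and 4, sst1.1+ ins+ cells of plate 3 and sst1.1+ cells of plate 4. The medians of pcsk1 are 910 and 1251 CPM in ins+ cells, above those of the other gates, while hspa5 is lower in ins+ cells and the medians of pdk2b are 0 in every group.

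Marker lists of cells outside the islet gave few reads in the ins+ gate, apart from the neuron list. All 6 endothelial and all 3 matched erythrocyte markers had 0 reads on both plates. The 11 acinar markers summed to 15.7 CPM on plate 3 and 58.6 CPM on plate 4, where 1 cell held 98.6% of the sum, and the duct markers to 89.1 and 27.4 CPM, mostly from anxa4 and krt18a.1, and reached 1377 CPM in 1 cell of plate 3 and 322 CPM in 1 of plate 4. The neuron list summed to 214 and 242 CPM, from snap25a, which is also in the list of release machinery, and from the RNA-binding protein gene elavl4, at 65.1 CPM in 14 of 32 cells and 54.7 CPM in 12 of 24. Among leukocyte markers, cd74a and cd74b gave all reads, 18.6 and 156 CPM, with ptprc, coro1a, lcp1, mpeg1.1 and cxcr4b at 0. Of fibroblast markers col5a1 held nearly all reads, in sums of 20.8 and 20.2 CPM. The delta-cell genes HHEX and dkk3b differed: HHEX was read in 2 and 1 ins+ cells, and dkk3b in 17 of 32 and 15 of 24, at 184 and 297 CPM, against 5842 CPM in sst1.1+ cells. The EGFP row stood at 300.4 and 199 CPM in the ins+ pools, against 1590 CPM for the sst1.1+ ins+ pool and 4020 CPM for the sst1.1+ pool, and its highest ins+ cell, with 2027 CPM, was 1 of those with sst1.1 between 1 and 5% of reads.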

How the data were processed

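Single cells were profiled by Smart-Seq2. The submitters' processing notes name Trim Galore, HISAT2, featureCounts and the build GRCz11, without roles. The sources used here give neither tool versions nor the annotation or the use of strand. What the authors deposited is 1 table of raw counts, not normalized, with 31953 gene rows, 92 spike-in rows and an EGFP row. All columns matched a sample. Spike-in rows, with 5.61% of reads, were left out of totals.

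Counts were summed per gate and plate and scaled to CPM. With 1 sample per group, no test was made. Ratios add 1 CPM, which understates differences of low genes, and need at least 50 CPM in the higher pool. Counts against both other gates together need 50 CPM in both ins+ pools for higher genes and in both other pools for lower genes. Intervals are exact Poisson, conditional binomial or Clopper-Pearson. Genes were named by rank: most reads, excess variation, ratios between plates and gates, and rho with ins, besides list members. Members and lists were chosen with earlier results of these data known. Of 398 listed symbols, 366 matched by name, 8 by gene ID, and 24 were not found or not unique. The row AC024175.4, at a median of 9.02 and 9.43% of reads in ins+ cells, counted in totals and is no gene symbol. Scripts (Python 3.11.15, pandas 2.3.3, scipy 1.17.1, R 4.3.3, edgeR 4.0.16 for TMM factors) were tested on simulated data. Alternatives were other totals, minima, pseudocounts, scaling, cell filters, variation measures and correlations, thinning, and leaving out cells with another hormone or with many cell cycle genes, the last and a total without hormones being chosen after seeing the data.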

Additional observations from a re-analysis of the deposited data

How the results depend on the processing

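A filter of 1000 detected genes and 100000 reads left out no ins+ cell, so the median ins share could not move. Without the 5 cells with another hormone it was 41.1% on plate 3 and 37.9% on plate 4, against 40.6 and 37.5% with them. Genes past 2-fold between the ins+ pools numbered 264, and 625 with a total without ins reads, 661 without reads of 14 hormone genes, 1278 from 20 CPM and 3867 with no minimum, where more genes were tested (3128, 3219, 4611 and 11199). The splits of higher to lower were then 268 to 357, 285 to 376, 514 to 764 and 1710 to 2157. Genes higher than in both gates were 2.87% of those tested, and 13.5%, 4.57%, 3.48% and 3.5% in that order of settings. Variable genes shared by both plates numbered 43. With no minimum 24 were shared, 20 of them among the 43, and lists of 50 shared 24, all among the 43. With the SD of log2 levels 52 were shared, but only 23 of the 43 were among them. Cells with another hormone numbered 5, 9 at a threshold of 1% and 0 once left out. Genes covarying with ins numbered 23, 13 without those cells and 2 with ins kept in the total, where each gene's share falls as ins takes more reads. The log2 ratio of sst1.1 turned to 0.87 without those cells and to 0.86 without cells with 10 or more cell cycle genes. With the SD of log2 levels, excess variation turned to -1.36 and -0.89 for nupr1 on plates 3 and 4, to -0.16 for calca and to -0.045 for pcna on plate 3, genes read in few cells. The cause of the other moves was not tested. No paired analysis was possible because replicate numbers only name cells in accession order and no test was made. Depth limits genes near 5 reads per cell, whose absence from a cell cannot be told apart from a missed transcript.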
